A study of Mus musculus with 6 samples.

Results

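The 30 genes examined here encode the enzymes of glycolysis and the regulators and targets of the hypoxia response. Of the 27 that could be tested between sorted cells of fetal and adult mouse lung, 1 passed, lower in adults. That is 3.7%, against 4.57% of all tested genes called lower. Hif3a, the hypoxia-inducible factor subunit whose transcript is itself induced by low oxygen, fell 10.9-fold in the adult arrays, or 6.94-fold without adult replicate 3 and 17.3-fold without adult replicate 1. That call was lost without any 1 E18 array, without adult replicate 2 and after quantile normalization. Epithelial marker sums were low and lymphocyte marker sums high on adult replicates 1 and 2. Lyz2, a gene named in the adult sort, was lower in the adult arrays. Most of the other members lay lower in the adult arrays by amounts that did not pass the test. Differences were below 0 for 77.8% of the members tested, against 59% of all genes. The median log2 difference was -0.65 over the members tested, against -0.17 over all genes. The members were a fixed list, and 27 of the 30 had at least 1 probe set paired with a single gene symbol, of 18193 such genes on the array. A gene with several probe sets was represented by the brightest, as averaged on the log2 scale over all 6 arrays. All 27 were tested, having reached a detection floor, the 40th percentile of all probe sets of an array, on every one of the 6 arrays, as had 13335 genes on at least 3. Gpi1 and Eno1 had no single-symbol probe set in the gene table used, so their expression was not analysed here, and they enter only the promoter counts. Gapdh had such probe sets only among the manufacturer's controls, which were kept out of the test and are described separately.

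The study compared 2 populations of sorted lung cells by Affymetrix 3' expression arrays, with 3 labelled biological replicates and 3 arrays each. E18 samples were Muc1+/Pdpn+ cells sorted from lungs at embryonic day 18, named bipotent progenitors by the series, and adult samples were Lyz2+/EpCAM+ cells, named alveolar type II cells. Age, population and sort differ together, so that birth and the start of air breathing, cell type and gate cannot be told apart. Strain, sex, adult age, pooling of animals and whether the sort markers were antibodies or reporters were not given in the sources used here. Values are the authors' MAS5 signals on the log2 scale, and each difference is the adult mean less the E18 mean, so a value below 0 means lower in adults. Where a gene's values follow without group names, those of E18 replicates 1, 2 and 3 come first and the adult ones second. Signals of different probe sets are not compared as levels. In sorted bulk RNA, fewer cells of a type and less RNA per cell cannot be told apart.

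Glycolysis splits glucose into pyruvate in the cytosol, with phosphofructokinase as its committed step, and lactate dehydrogenase regenerates the cofactor when oxygen is short. Hypoxia-inducible factors pair an oxygen-labile alpha subunit, encoded by Hif1a, Epas1 or Hif3a, with a stable beta subunit and bind DNA at a short core sequence. With oxygen present, prolyl hydroxylases such as those encoded by Egln1 and Egln3 mark the alpha subunits for destruction, so alpha subunit activity is set mainly at the protein level, which an array does not read. The fetal lung develops at low oxygen tension, and the alveolar surface meets air at birth.

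The core sequence bound by hypoxia-inducible factors was looked for in the members' promoters. It was searched as ACGTG and GCGTG on both strands in RefSeq windows of the GRCm38.p6 mouse build, from 250 bases before to 50 after each annotated start. A palindromic CACGTG counts once on each strand as ACGTG. Of the 30 members 28 matched an entry, with 40 promoters between them, and Epas1 and Ndrg1 did not. ACGTG was present in at least 1 promoter of 20 of these 28 genes, or 71.4%, against 28.7% of the 10729 tested genes with an entry. By promoter the share was 55% of 40, against 24.8% of 13677 promoters of tested genes and 19.6% of all 32851. Either form was present in 33 of the 40, or 82.5%, against 59.6% of promoters of tested genes. The median GC content was 63.5% in the members' promoters and 60.3% in those of tested genes. A match describes letters in a window and not a bound site, and these counts are given with no test.

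The 5 promoters shown are those of Hif3a, the member that changed, of Bnip3 and Pfkl, whose adult arrays all lay below the E18 arrays, and of Pgk1 and Ldha, textbook targets of the factor. They lie at chr7:17062378-17062677 (minus strand), chr7:138909457-138909756 (minus), chr10:78009758-78010057 (minus), chrX:106186850-106187149 (plus) and chr7:46845554-46845853 (plus, the first of 2 listed starts). Each runs 5′ to 3′ on the gene's strand, with both core forms in capitals.
Hif3a: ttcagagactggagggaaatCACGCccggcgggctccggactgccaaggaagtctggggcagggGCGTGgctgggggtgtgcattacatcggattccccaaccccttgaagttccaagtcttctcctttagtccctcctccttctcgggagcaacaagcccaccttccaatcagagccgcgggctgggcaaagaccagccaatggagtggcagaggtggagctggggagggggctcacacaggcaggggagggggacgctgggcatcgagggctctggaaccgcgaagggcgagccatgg
Bnip3: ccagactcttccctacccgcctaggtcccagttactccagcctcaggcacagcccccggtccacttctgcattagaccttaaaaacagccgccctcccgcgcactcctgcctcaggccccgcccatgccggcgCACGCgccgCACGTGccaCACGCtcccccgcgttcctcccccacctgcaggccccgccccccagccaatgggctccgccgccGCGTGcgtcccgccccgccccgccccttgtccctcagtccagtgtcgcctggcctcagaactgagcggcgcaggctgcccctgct
Pfkl: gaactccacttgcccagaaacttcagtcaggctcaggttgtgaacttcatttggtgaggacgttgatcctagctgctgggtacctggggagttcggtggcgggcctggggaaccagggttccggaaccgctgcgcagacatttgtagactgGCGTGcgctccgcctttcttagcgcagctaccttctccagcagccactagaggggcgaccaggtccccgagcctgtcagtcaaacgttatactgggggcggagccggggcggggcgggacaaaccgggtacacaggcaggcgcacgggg
Pgk1: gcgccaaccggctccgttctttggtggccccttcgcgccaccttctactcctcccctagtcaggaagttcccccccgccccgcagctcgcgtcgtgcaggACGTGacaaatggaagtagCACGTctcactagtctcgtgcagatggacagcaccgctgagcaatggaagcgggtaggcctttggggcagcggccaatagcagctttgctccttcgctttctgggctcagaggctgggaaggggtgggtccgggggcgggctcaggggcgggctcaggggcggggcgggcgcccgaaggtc
Ldha: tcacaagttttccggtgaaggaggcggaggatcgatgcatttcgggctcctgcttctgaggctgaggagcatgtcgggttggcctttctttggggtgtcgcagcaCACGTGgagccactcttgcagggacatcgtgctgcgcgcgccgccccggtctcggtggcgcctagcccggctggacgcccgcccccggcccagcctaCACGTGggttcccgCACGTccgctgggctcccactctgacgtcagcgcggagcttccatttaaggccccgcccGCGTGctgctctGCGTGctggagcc
Hif3a held 0 matches to ACGTG and 2 to GCGTG, and Pfkl held 0 and 1. Bnip3 held 2 and 3, Pgk1 2 and 0, and Ldha 5 and 2. Of the 5, which were chosen as stated above, Ldha held the most matches. Match counts were not tested against the differences between groups.

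Array quality measures and cell type markers differed between arrays. After the authors' scaling the median signal was 70.2 to 112 and the floor 42.3 to 68.6. Correlations across tested genes were 0.921 to 0.983 among E18 arrays, with the highest between E18 replicates 1 and 2, and 0.777 to 0.913 among adult arrays. On adult replicate 1 the 3′ control probe set for Gapdh was 24.6 times as bright as the 5′ one, against 4.70 to 6.18 on the other 5 arrays, and for Actb 11.7 times against 1.35 to 1.55. Poly-A spike-in signals were high on replicate 3 of each group, at mean log2 values of 14.37 and 14.75 against 8.96 to 11.63 elsewhere. The summed linear signal of 9 epithelial markers was 4080 and 4650 on adult replicates 1 and 2, against 52200 on adult replicate 3 and 27600 to 33500 on E18 arrays. That of 13 lymphocyte markers was 96600, 82690 and 19500 on adult replicates 1, 2 and 3, against 9380 to 18000 on E18 arrays. Ptprc alone made up most of this sum on the E18 arrays, at log2 values of 13.16, 12.91 and 13.84. The same held on adult replicate 3, at 13.81. For 7 airway markers the sum was 24100, 20450 and 109400 on adult replicates 1, 2 and 3, against 28200 to 34100 on E18 arrays. All 11 measured type II cell markers were at or above the floor on all 6 arrays, with sums of 53600 to 86800 in adults and 63300 to 87500 at E18. Lyz2, a gene named in the adult sort, went against that label: it read 14.13, 14.04 and 14.27 at E18 and 11.44, 11.28 and 11.13 in adults, 7.27-fold lower in the adult arrays (-2.86, SE 0.25, adjusted p = 0.00303). Epcam, the other gene of that sort, read 10.69, 11.31 and 9.26 and 7.85, 8.50 and 10.68, low on adult replicates 1 and 2 (adjusted p = 0.359). Of the E18 sort, Pdpn was higher at E18 (-2.27, adjusted p = 0.00924) and Muc1 did not pass (-2.07, adjusted p = 0.206). Nkx2-1, a lung epithelial factor, was under the floor on all arrays but adult replicate 3. Every direction below is therefore that of the arrays as labelled.

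Over the 27 members 1 was lower, 0 were higher and 26 did not pass at an adjusted p under 0.05 by limma with Benjamini-Hochberg adjustment over all 13335 genes. The share of members called lower, 3.7%, stood near the 4.57% of all tested genes called lower, and 1.41% of genes were called higher. At an unadjusted p under 0.05 there were 5 members lower and 0 higher, against 15.1% and 6.49% of all genes. Small differences leaned one way. The difference was below 0 for 21 of 27 members, or 77.8%, against 59% of all genes, and the members' median of -0.65 compares with -0.17 over all genes. With arrays centred on their medians 20 of 27 were below 0, with a median of -0.50 against -0.02, and after quantile normalization 24 of 27, with -0.73 against -0.05. For 8 members every adult array lay below every E18 array, or 29.6%, against 18.8% of all genes, and for 0 members every adult array lay above, against 10.1%. Those 8 were Hif3a, Bnip3, Pfkl, Pgam1, Pfkm, Car9, Aldoa and Ldha. Leaving out adult replicate 3 raised the number of calls among members and among all genes alike, while leaving out E18 replicate 1, 2 or 3 or adult replicate 2 left 0 members called. Without adult replicate 3 there were 4 members lower, Pfkl, Aldoc, P4ha2 and Hif3a, against 15.5% of all genes, and in replicates 1 and 2 alone 5, with Bnip3 added, against 16.5%. As departures from each member's E18 mean, the median was -0.67, -0.42 and -0.58 on adult replicates 1, 2 and 3, against -0.33, -0.22 and -0.01 over all genes.

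**Figure D1:**
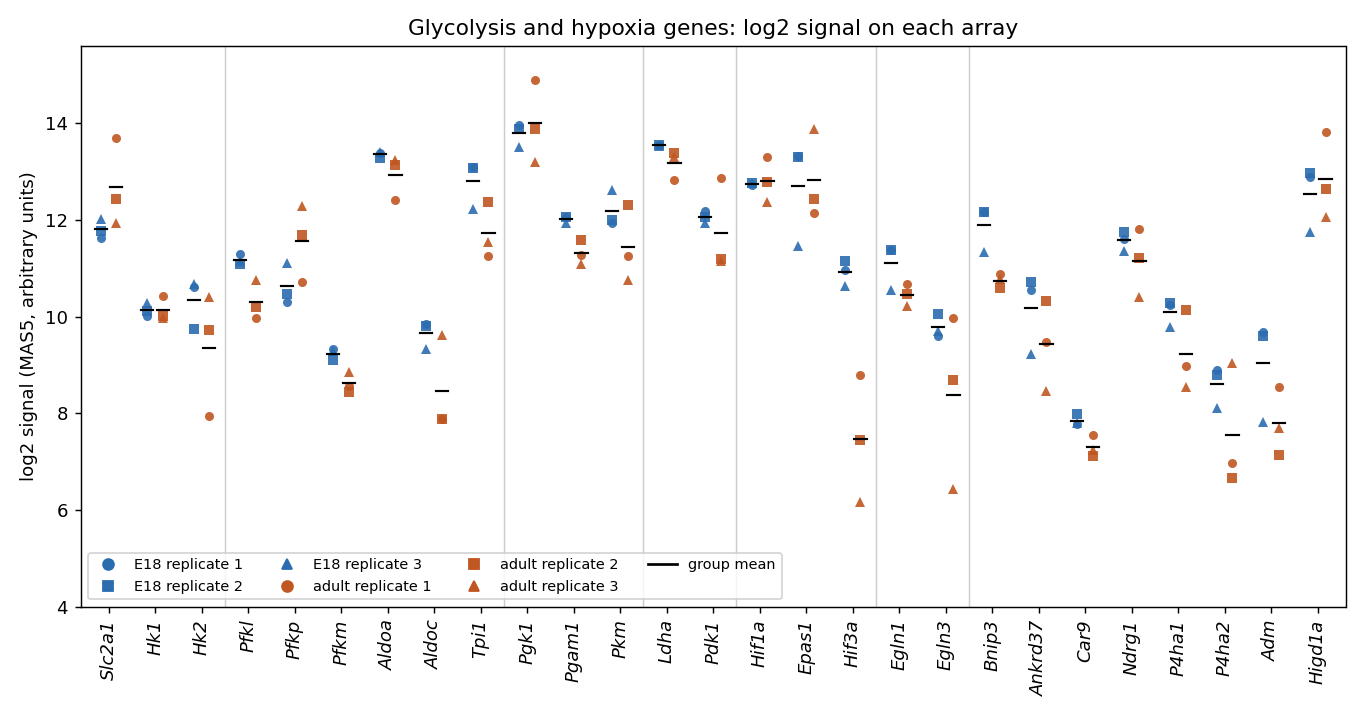
Log2 signal of the 27 tested members on each of the 6 arrays, by role from glucose uptake on the left to hypoxia-induced genes on the right. Points are arrays, with marker shape giving the replicate, and black bars are group means. Only Hif3a shows a gap of over 1 log2 unit between its lowest E18 and highest adult array.

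**Figure D2:**
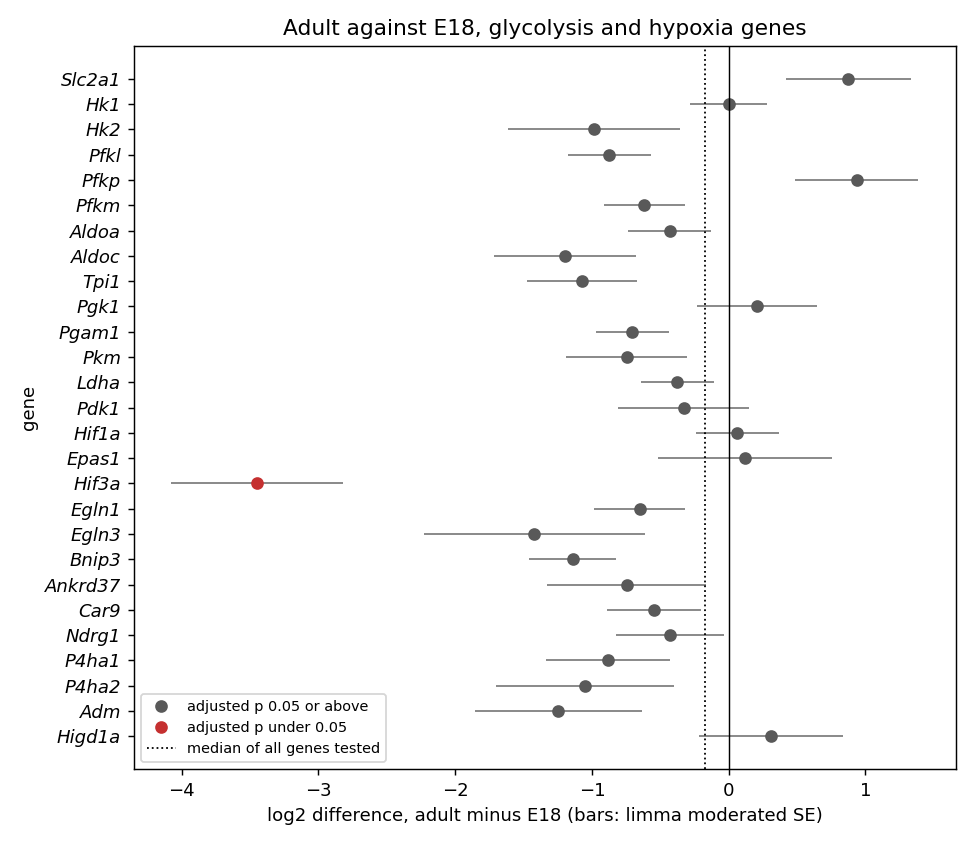
Log2 difference, adult minus E18, for each member, with the moderated standard error as bars. The dotted line marks the median of all genes tested, -0.17, and Hif3a at -3.45 is the 1 member with an adjusted p under 0.05.

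Glucose entry showed no difference that passed. Slc2a1, the main glucose transporter of most epithelia, had E18 values of 11.63, 11.77 and 12.02 and adult values of 13.70, 12.43 and 11.93, with adult replicate 1 the highest. Its difference was 0.88 (SE 0.46, adjusted p = 0.317), and 0.37 without adult replicate 1. Its 2 dimmer probe sets differed by 0.42 and -0.80, so the sign depended on the probe set. Hk1, the hexokinase of most tissues, was level at 10.01, 10.12 and 10.29 in E18 and 10.43, 10.01 and 9.98 in adult arrays, with group means of 10.14 ± 0.14 and 10.14 ± 0.25 (SD, n = 3). Hk2, the hexokinase induced by growth signals and hypoxia, read 10.61, 9.74 and 10.68 and 7.95, 9.72 and 10.40, with adult replicate 1 far below all other arrays and the rest overlapping. The Hk2 difference was -0.98 (adjusted p = 0.414) and shrank to -0.28 without adult replicate 1. The change in the Hk2 to Hk1 log ratio, -0.98, had an exact two-sided permutation p of 0.5.

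Among the phosphofructokinase subunits, which form the committed enzyme as mixed tetramers, the liver-type and platelet-type genes had differences of opposite sign, neither of which passed alone. Pfkl, the liver type, stood at 11.30, 11.09 and 11.14 at E18 and 9.96, 10.20 and 10.75 in adults, with no overlap between groups. Its difference was -0.87 (SE 0.31, adjusted p = 0.154), and it passed without adult replicate 3, at -1.10 (adjusted p = 0.0331). A second Pfkl probe set also had all adult arrays lower (-1.27, adjusted p = 0.109 over probe sets), while the dimmest had a difference of 0.11. Pfkp, the platelet type, read 10.30, 10.48 and 11.10 and 10.72, 11.68 and 12.29, higher in adult replicates 2 and 3 than in any E18 array (0.94, SE 0.45, adjusted p = 0.279). Its 2 other probe sets had differences of 0.81 and 0.24. Pfkm, the muscle type, was at 9.33, 9.10 and 9.28 and 8.57, 8.43 and 8.85, lower in every adult array by a small amount (-0.62, adjusted p = 0.283).

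The log ratio of Pfkp to Pfkl was taken within each array. It was -0.998, -0.62 and -0.04 in E18 arrays and 0.76, 1.48 and 1.54 in adult arrays, a change of 1.81 with no overlap. Its sign sets no level of 1 gene above the other, since probe sets differ in brightness. The exact two-sided permutation p was 0.1, the smallest that 3 against 3 arrays allow, and 0.45 after Benjamini-Hochberg adjustment over the 9 gene pairs compared. The change was 2.08 with the second brightest probe set of each gene and 1.58 within replicate 3. For Pfkm against Pfkl the change was 0.26 (exact permutation p = 0.2).

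Aldolases and triose phosphate isomerase lay lower in most adult arrays. Aldoa, the aldolase of most cells, read 13.38, 13.29 and 13.40 and 12.40, 13.13 and 13.24, with every adult array lower by a narrow margin outside adult replicate 1 (-0.43, adjusted p = 0.457). Its 4 other probe sets had differences from -1.40 to -0.04. Aldoc, the brain-type aldolase, was at 9.84, 9.81 and 9.33 and 7.88, 7.88 and 9.63, so that adult replicates 1 and 2 were low and adult replicate 3 stood among the E18 arrays. The Aldoc difference was -1.20 (SE 0.52, adjusted p = 0.236). Replicates 1 and 2 alone gave -1.94 (adjusted p = 0.00869), and replicate 3 gave 0.30. Its dimmer probe set read 8.28, 7.44 and 8.24 and 7.67, 5.83 and 8.02, with adult replicate 1 inside the E18 range and only adult replicate 2 below it. Tpi1, which interconverts the triose phosphates, read 13.10, 13.07 and 12.22 and 11.25, 12.37 and 11.55 (-1.07, SE 0.40, adjusted p = 0.173), with adult replicate 2 above the lowest E18 array. Its other probe sets differed by -1.30 and -0.66.

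In lower glycolysis, Pgam1, the mutase that moves the phosphate of phosphoglycerate, stood apart in every array. It read 12.06, 12.07 and 11.93 at E18 and 11.27, 11.59 and 11.09 in adults, a difference of -0.70 (SE 0.27, adjusted p = 0.177). Pkm, the pyruvate kinase gene, was at 11.93, 12.01 and 12.61 and 11.24, 12.32 and 10.75, with adult replicate 2 inside the E18 range (-0.75, adjusted p = 0.375). Which splice forms this probe set reads was not examined here.

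Pgk1, which makes the first ATP of the pathway, gave opposite answers by probe set. The brightest read 13.97, 13.89 and 13.51 and 14.90, 13.88 and 13.21, a difference of 0.21 (adjusted p = 0.822), with adult replicate 1 highest of all arrays. The next brightest read 13.14, 13.32 and 12.94 and 12.39, 12.81 and 12.47, with every adult array lower (-0.58, SE 0.26, adjusted p = 0.291 over probe sets) and adult replicate 1 lowest. Pgk1 thus has no settled direction in these arrays.

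Gapdh, the dehydrogenase often used as a reference gene, was read by the control probe sets along its transcript. The 3′ probe set gave 13.84, 13.75 and 13.77 at E18 and 14.04, 13.74 and 13.27 in adults, a difference of -0.10 (exact permutation p = 0.7). The middle one gave 13.29, 13.03 and 12.996 and 11.08, 12.82 and 12.07, and the 5′ one 11.59, 11.16 and 11.54 and 9.42, 11.11 and 10.69. Both were lower in every adult array, with differences of -1.12 and -1.02 (exact permutation p = 0.1 for each, the smallest possible, and 0.233 adjusted over 7 control measures). The Gapdh difference depended on where along the transcript it was read.

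At the fate of pyruvate, Ldha, the lactate dehydrogenase subunit that favours lactate, was 13.56, 13.56 and 13.53 at E18 and 12.82, 13.39 and 13.31 in adults. All adult arrays were lower, with a difference of -0.38 (SE 0.27, adjusted p = 0.462). Pdk1, a classic hypoxia target, encodes a kinase that inhibits pyruvate dehydrogenase. Its brightest probe set read 12.19, 12.07 and 11.95 and 12.87, 11.18 and 11.16 (-0.33, adjusted p = 0.736). Adult replicate 1 alone was above the E18 arrays there, and the difference was -0.90 without it (adjusted p = 0.0743). Both other Pdk1 probe sets above the floor had all adult arrays lower, at -0.92 (adjusted p = 0.153 over probe sets) and -1.20 (adjusted p = 0.0763). The last of these read 9.22, 9.14 and 9.28 and 8.12, 8.08 and 7.85, tight within each group.

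The alpha subunits split, with Hif3a far lower in the adult arrays and Hif1a and Epas1 showing no difference that passed. Hif3a stood at 10.97, 11.16 and 10.63 at E18 and 8.80, 7.45 and 6.16 in adults, or 10.92 ± 0.27 and 7.47 ± 1.32 (SD, n = 3). The difference was -3.45 (SE 0.63, adjusted p = 0.0237). Within replicate 3 it was -4.47, and replicates 1 and 2 gave -2.94 (adjusted p = 0.0181). Its call was lost without E18 replicate 1, 2 or 3 (adjusted p = 0.115, 0.121 and 0.0629), without adult replicate 2 (0.0964), and after quantile normalization (0.0514). A second Hif3a probe set read 9.78, 10.01 and 7.93 and 6.34, 2.83 and 3.14, under the floor on adult replicates 2 and 3, and also passed (adjusted p = 0.03 over probe sets). With values under the floor raised to it, its difference was -3.31. Another leaned the other way. It was under the floor on all 3 E18 arrays and read 7.01, 5.77 and 6.47 in adults, all at or above the floor. Its difference of 1.01 did not pass (adjusted p = 0.382 over probe sets), and was 0.58 with values under the floor raised to it. A further 3 probe sets were under the floor throughout. Hif3a has several splice forms, and which of them each probe set reads was not examined here.

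Marker lists of other cell types and of cell division also differed between the groups in which Hif3a did. The summed signal of 12 mesenchymal markers was 51600 to 78700 at E18 and 8220 to 21500 in adults. Limma called 9 of these 12 lower. For 12 endothelial markers the sum was 8810 to 26500 and 3850 to 4650, with 4 of 12 called lower. Tie1 was under the floor on all adult arrays and so entered the test through its E18 arrays alone. For 12 type I cell markers the sum was 69600 to 95500 and 15800 to 23400, with 7 of 12 called lower. For 13 cell division genes it was 20400 to 28700 and 6790 to 15300, with 8 of 13 called lower. Of all tested genes 4.57% were called lower. The median differences of these lists, in the order given, were -3.64, -2.94, -2.37 and -1.79, against -0.17 over all genes. Macrophage markers summed higher in adults, at 69300 to 98600 against 43900 to 67600, with 0 of 10 called by limma. Their median difference was -0.05, so the higher sum was not shared across the list. The part of these lists in the Hif3a difference, or in the smaller differences of the other members, was not tested.

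Hif1a, the broadly expressed alpha subunit, read 12.73, 12.76 and 12.76 and 13.29, 12.79 and 12.36, with group means of 12.75 ± 0.02 and 12.82 ± 0.46 (SD, n = 3). The E18 arrays were nearly identical, and the adult arrays spread around them. Its difference was 0.06 (SE 0.30, adjusted p = 0.928). Epas1, the alpha subunit prominent in endothelium and type II cells, read 13.32, 13.31 and 11.47 and 12.14, 12.44 and 13.88, so E18 replicate 3 was the lowest array and adult replicate 3 the highest. Its difference of 0.12 (adjusted p = 0.933) combined 2.41 within replicate 3 with, in replicates 1 and 2, -1.02 (adjusted p = 0.0588). Endothelial markers summed to 25240, 26530 and 8805 on the E18 arrays and 3849, 4646 and 4328 on the adult arrays. Type II cell markers summed to 87460, 86840 and 63250 on the E18 arrays and 53610, 63480 and 86790 on the adult arrays. The part of either list in the Epas1 values was not tested.

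The log ratio of Hif3a to Hif1a was -1.76, -1.61 and -2.13 at E18 and -4.49, -5.34 and -6.20 in adults. It changed by -3.51 with no overlap (exact two-sided permutation p = 0.1, the smallest possible, and 0.45 adjusted over 9 pairs). The ratio of Epas1 to Hif1a changed by 0.06 (exact permutation p = 0.9).

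Of the prolyl hydroxylases, Egln1, the main oxygen sensor, was at 11.37, 11.38 and 10.55 and 10.67, 10.47 and 10.22, with E18 replicate 3 among the adult values (-0.65, SE 0.33, adjusted p = 0.307). Egln3, the hydroxylase most strongly induced by hypoxia, read 9.61, 10.06 and 9.71 and 9.98, 8.70 and 6.43 with its brightest probe set, and the adult arrays spanned over 3 log2 units (-1.42, SE 0.81, adjusted p = 0.358). The difference was -2.23 without adult replicate 1 and -0.45 without adult replicate 3. Its other probe set gave 6.83, 7.16 and 6.998 and 4.77, 5.51 and 4.76, with every adult array lower and 2 of the 3 under the floor (adjusted p = 0.0599 over probe sets). With values under the floor raised to it, the difference was -1.21. The change in the log ratio of Egln3 to Egln1 was -0.77 (exact permutation p = 0.6).

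Among the 8 hypoxia-induced members 0 passed by limma, with 1 lower and 0 higher at an unadjusted p under 0.05, and 7 of 8 differences were below 0. Over all genes 15.1% were lower at that unadjusted p and 59% were below 0. Bnip3, a mitophagy receptor and standard hypoxia target, read 12.16, 12.16 and 11.34 at E18 and 10.88, 10.58 and 10.77 in adults. All adult arrays were lower and close to each other, with a difference of -1.14 (SE 0.32, adjusted p = 0.0885), and in replicates 1 and 2 alone Bnip3 passed at -1.43 (adjusted p = 0.0237). Car9, a membrane carbonic anhydrase used as a hypoxia marker, was 7.78, 7.98 and 7.79 and 7.56, 7.11 and 7.24, lower in every adult array by a narrow margin (-0.54, SE 0.34, adjusted p = 0.404). Ankrd37, an ankyrin repeat target, read 10.56, 10.72 and 9.23 and 9.48, 10.33 and 8.46, with replicate 3 lowest in both groups (-0.75, adjusted p = 0.509). Ndrg1, a stress-response gene, read 11.62, 11.76 and 11.36 and 11.81, 11.22 and 10.41 (-0.43, adjusted p = 0.58). Another of its probe sets had all adult arrays lower (-1.16, adjusted p = 0.166 over probe sets).

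P4ha1 and P4ha2 encode the catalytic subunits of collagen prolyl hydroxylase, which fibroblasts need for secreting collagen. P4ha1 stood at 10.25, 10.28 and 9.79 and 8.98, 10.15 and 8.54, with adult replicate 2 inside the E18 range (-0.88, adjusted p = 0.307). P4ha2 stood at 8.90, 8.80 and 8.12 and 6.96, 6.66 and 9.05, lowest in adult replicates 1 and 2 and highest of all in adult replicate 3. The P4ha2 difference was -1.05 over all arrays (SE 0.65, adjusted p = 0.398). Replicate 3 gave 0.93, and replicates 1 and 2 gave -2.04 (adjusted p = 0.0112). The brighter Aldoc probe set, given above, showed the same split between adult replicates, and the dimmer one did not. Among the adult arrays, the epithelial and airway marker sums were highest and the lymphocyte marker sum lowest on that same replicate 3. Their part in these values was not tested.

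Adm, the vasodilator peptide adrenomedullin, read 9.69, 9.61 and 7.82 and 8.55, 7.13 and 7.69, with E18 replicate 3 within the adult range (-1.25, SE 0.61, adjusted p = 0.289). Its dimmer probe set had every adult array lower and under the floor, at 7.65, 7.47 and 6.51 and 3.88, 4.81 and 5.65 (adjusted p = 0.0734 over probe sets). That probe set entered the test through its E18 arrays alone, which favoured a fall. Higd1a, a mitochondrial inner membrane protein, read 12.89, 12.96 and 11.75 and 13.82, 12.65 and 12.06 (0.31, adjusted p = 0.774), with adult replicate 1 the highest array. Its 2 dimmer probe sets leaned lower, at -0.77 and -0.74.

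Across all probe sets of the members, 59 of 65 were tested and 2 were lower, both of Hif3a, and 0 higher by limma adjusted over 28104 probe sets, of which 3.05% were lower and 0.904% higher. The difference was below 0 for 47 of 59, and every adult array lay below every E18 array for 20 of 59, against 16.4% of all probe sets tested, and above for 0, against 9.17%. Probe sets disagreed in sign for 6 of the 17 genes with more than 1 tested, namely Hif1a, Hif3a, Higd1a, Pfkl, Pgk1 and Slc2a1, with Hif3a counted only through the probe set under the floor on all E18 arrays. Adult replicate 1 was at least 2-fold above adult replicate 2 for 11 of the 59 and at least 2-fold below it for 10, against 15.2% and 14.2% of all probe sets tested. The same array had the high 3′ to 5′ control ratios, and their part in the disagreement was not tested.

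**Figure D3:**
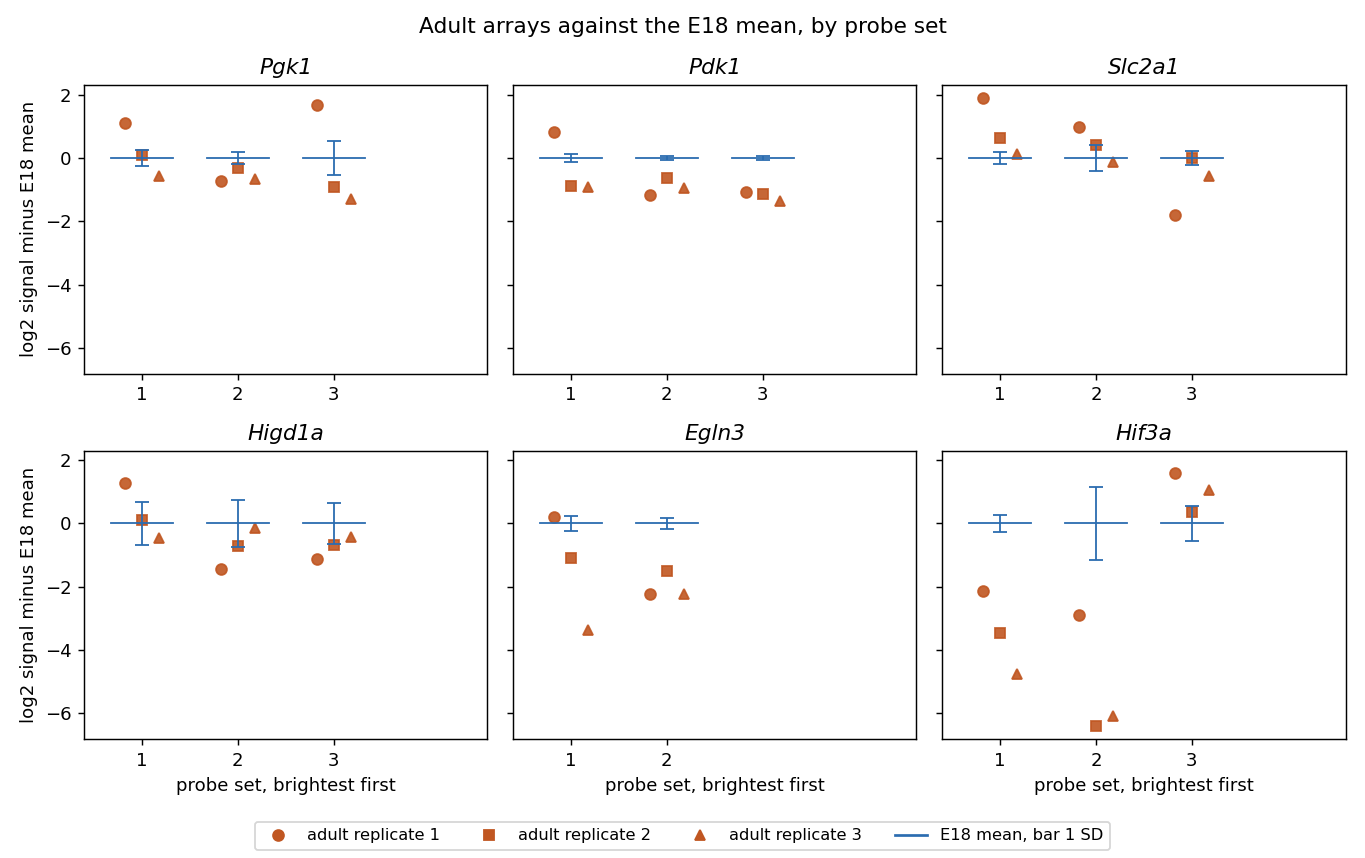
Log2 signal of each adult array minus the E18 mean, for every tested probe set of 6 genes, ordered from the brightest. Blue bars give 1 SD of the E18 arrays. Values under the floor are drawn as deposited, as for Hif3a and Egln3 probe set 2 and all E18 arrays of Hif3a probe set 3. For the brightest Pgk1, Pdk1, Slc2a1 and Higd1a probe sets adult replicate 1 lies above the other adult arrays, and for the next Pgk1 and Pdk1 probe sets it lies below them.

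Other genes of glycolysis held 1 rise and 1 fall. Of 12 tested genes of a list of 18, limma called Pgam2 lower and Eno3 higher, against 4.57% and 1.41% of all genes. The median over the 12 was -0.32, against -0.17 over all genes. Eno3, the muscle enolase, rose from 7.54, 8.05 and 7.96 to 9.76, 9.88 and 9.62, with every adult array higher (1.90, SE 0.31, adjusted p = 0.0171), and did not pass without E18 replicate 1 or 2 or adult replicate 2 (adjusted p = 0.126, 0.0951 and 0.0688). Pgam2, the muscle mutase, was 8.01, 7.69 and 6.81 at E18 and under the floor on all adult arrays, at least 3.36-fold lower (adjusted p = 0.0241). Pgam2 entered the test through its E18 arrays alone, which favoured a fall. It did not pass without E18 replicate 1, 2 or 3 (adjusted p = 0.147, 0.14 and 0.0531). Ldhb, the subunit that favours pyruvate, read 11.94, 11.99 and 11.09 and 10.43, 10.55 and 13.28, high on adult replicate 3. Its log ratio to Ldha differed by 0.12 (exact permutation p = 0.9).

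Sugar, lactate and pyruvate handling and the regulators of the factor held no call. Of 19 handling genes 0 passed by limma, with a median of -0.20 against -0.17 over all genes, and all adult arrays lay lower for 5, against 18.8% of all genes. Pdha1, a subunit of pyruvate dehydrogenase, was 12.25, 12.18 and 11.95 and 11.34, 11.82 and 11.31 (-0.64, adjusted p = 0.234). Slc2a3, a high-affinity glucose transporter prominent in leukocytes, read 10.24, 10.02 and 12.44 and 13.54, 13.48 and 11.003, highest on adult replicates 1 and 2 and next on E18 replicate 3 (1.77, adjusted p = 0.285). The lymphocyte markers summed highest on those 2 arrays, and their part was not tested. Without adult replicate 3 its difference was 2.61 (adjusted p = 0.0393). Of 14 regulators 0 passed, with a median of -0.16. Eloc, a subunit of the ubiquitin ligase that removes alpha subunits, differed by 0.36 (adjusted p = 0.603), and Ep300, a coactivator of the factor, by 0.17 (adjusted p = 0.813).

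Of 32 tested hypoxia-induced genes outside the members, limma called 6 lower and 0 higher, against 4.57% and 1.41% of all genes, and their median of -0.73 compares with -0.17 over all genes. Differences were below 0 for 29 of 32, against 59% of all genes, and all adult arrays lay lower for 12, against 18.8%. Lox, the collagen crosslinking oxidase, fell from 12.40, 12.29 and 11.74 to 8.25, 5.67 and 6.96 (-5.18, SE 0.62, adjusted p = 0.0081). Its difference was -5.82 without adult replicate 1 and -4.53 without adult replicate 2. Plod2, which hydroxylates collagen lysines, fell from 9.62, 9.78 and 9.55 to 5.90, 6.45 and 6.43 (-3.39, SE 0.34, adjusted p = 0.0046), and passed without each array in turn. Igfbp3, an insulin-like growth factor binding protein, was 9.45, 9.13 and 8.64 at E18 and under the floor on all adult arrays, at least 9.99-fold lower (adjusted p = 0.00895). Ak4, a mitochondrial adenylate kinase, was 7.70, 8.34 and 7.06 at E18 and under the floor on all adult arrays, at least 3.85-fold lower (adjusted p = 0.024). Igfbp3 and Ak4 entered the test through their E18 arrays alone, so that entry favoured a fall. Their adjusted p-values rest on adult values under the floor.

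The other two falls, named after their values were seen, were Angptl4, a lipase inhibitor, and Vegfa, the angiogenic growth factor also listed here as a type I cell marker. Angptl4 read 10.07, 9.85 and 10.71 and 8.12, 8.73 and 8.11 (-1.89, SE 0.36, adjusted p = 0.0277). Vegfa read 11.04, 10.87 and 11.56 and 9.75, 9.15 and 9.23 (-1.78, SE 0.33, adjusted p = 0.024), and its second probe set differed by -0.85 (adjusted p = 0.439). Among the calls other than Plod2, that of Lox was lost without E18 replicate 2 (adjusted p = 0.0502). Igfbp3 did not pass without E18 replicate 1 or 2 (adjusted p = 0.0704 and 0.0675). Ak4 did not pass without E18 replicate 1, E18 replicate 2 or adult replicate 2 (adjusted p = 0.145, 0.159 and 0.0811). Vegfa lost its call without any 1 E18 array or adult replicate 2 (adjusted p from 0.0632 to 0.132). Angptl4 lost it without any 1 array but adult replicate 3 (adjusted p from 0.0608 to 0.14). Lox and Plod2 act on collagen, and the mesenchymal and type I cell marker sums were lower in the same adult arrays. Their part in these falls was not tested.

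**Figure D4:**
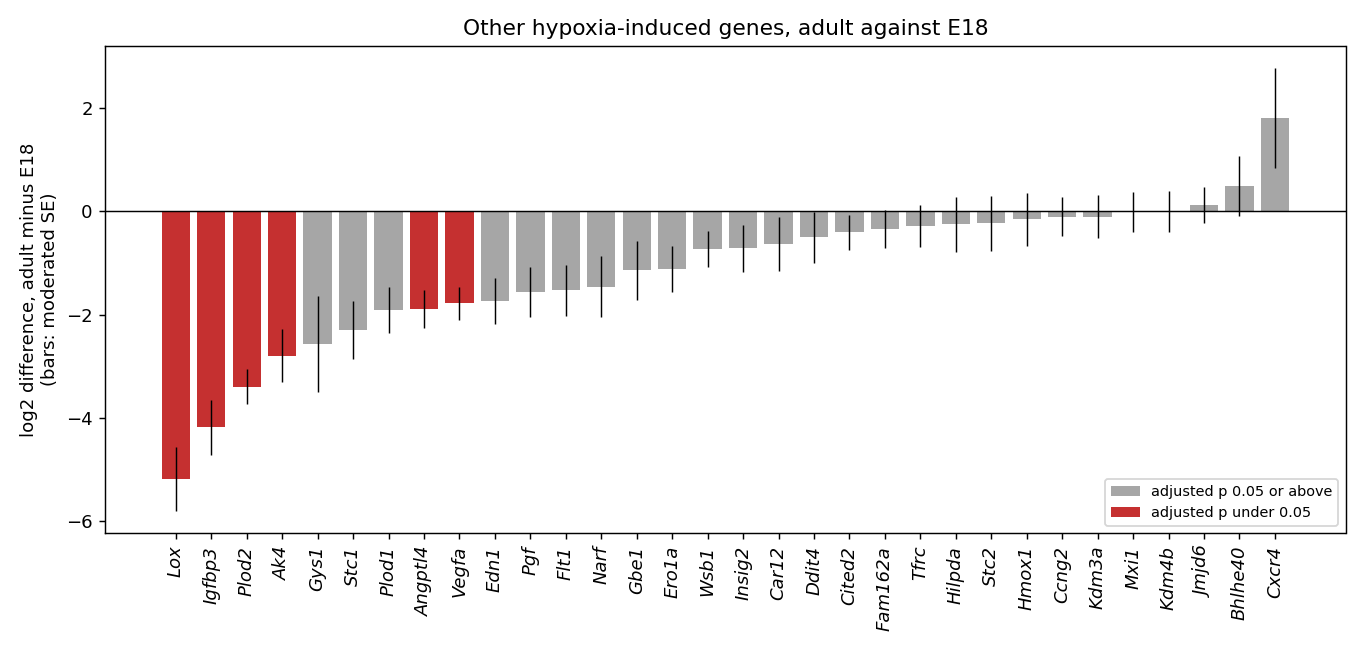
Log2 difference (adult minus E18) of the 32 tested hypoxia-induced genes outside the members, with the moderated standard error. Red bars are the 6 genes with an adjusted p under 0.05, all lower in the adult arrays, from Lox at -5.18 to Vegfa at -1.78. Igfbp3 and Ak4 reached the floor on E18 arrays only.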

How the data were processed

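Total RNA was amplified, labelled with biotin and hybridized to 1 array per sample, per the labels' protocols. The deposited values are linear signal intensity per probe set, for which the submitters' processing notes name MAS5 and Affymetrix Expression Console as the authors' tools. Their trimmed mean, without the lowest and highest 2%, was 500.00 on every array. All were above 0 and were log2 transformed with no pseudocount. Gene symbols came from the array's platform annotation, in which 34945 of 45101 probe sets had 1 symbol, 932 several and 9160 none, with 64 controls set aside, and 34741 matched RefSeq by gene ID. The linear model was limma 3.58.1 (R 4.3.3), its variance prior following signal, with two-sided Benjamini-Hochberg adjusted p-values over all genes tested. SE is the moderated standard error. The rule named all members, up to 4 passing genes per direction of each pathway list, or the 2 brightest where under 2 passed, and both genes of 9 pairs. Replicate numbers were not used to pair the samples in the main fit. Deviations from group means correlated at 0.04, -0.14 and -0.06 for the 3 shared numbers, and at -0.10 to 0.15 for unlike numbers. With 3 arrays a group, these values cannot show whether arrays of the same number were handled together. Poly-A spike-in signals were high on replicate 3 of both groups. Members, lists and tests were chosen with earlier results of these data known. The steps were tested on simulated data. P-values measure the spread between labelled biological replicates, whose animals are not described. E18 replicates 1 and 2 were the closest pair of arrays, at a correlation of 0.983. If these arrays share a source, the p-values understate the biological spread. With 3 arrays a group, their number sets the precision. Alternatives covered scaling, filters, floor, variance prior, probe set choice, blocks and left-out arrays.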

Additional observations from a re-analysis of the deposited data

How the results depend on the processing

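With all 6 arrays there were 798 genes called, with genes called higher numbering 188 and genes called lower 610. Leaving out 1 array each gave 66 to 2770 (24 to 701 higher, 42 to 2069 lower), lowest without E18 replicate 2 or 1 and highest without adult replicate 3. Counts were 497 (115 and 382) with second brightest probe sets, 492 (98 and 394) with the replicate block, 2996 (801 and 2195) in replicates 1 and 2 only, 63 (22 and 41) with E18 replicates 1 and 2 averaged, and 4916 (1566 and 3350) with array weights. The last 2 settings were chosen after seeing the data, as was including the Gapdh control. The members called lower, 1 in the main setting, were 0 after quantile normalization, with probe sets averaged (Hif3a then untested) and with E18 replicates 1 and 2 averaged, 5 in replicates 1 and 2 only, 10 with array weights (2 higher, 12 in all), and 0 to 4 when leaving out 1 array. The block changed no member's call. The member median of -0.65 was -0.50 with arrays centred, and -0.68 to -0.51 leaving out 1 array. Calls in the pathway lists, 8, were 4 with second brightest probe sets, 4 with the block, 27 in replicates 1 and 2 only, 1 with E18 replicates 1 and 2 averaged, 35 with array weights, and 1 to 23 leaving out 1 array. Member probe sets called, 2, were 1 after quantile normalization, 9 in replicates 1 and 2 only, and 0 to 9 leaving out 1 array. Pairs not overlapping, 2 of 9, were 4 with second brightest probe sets, 7 in replicates 1 and 2 only, and 2 to 5 leaving out 1 array. The cause was not tested.

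Signs of uncalled values turned for 6 members. After quantile normalization Pgk1 was -0.37, Hk1 0.12, Hif1a -0.28, Epas1 -0.17 and Higd1a -0.055. Averaged probe sets gave Pgk1 -0.18, Hk1 0.93, Hif1a -0.47 and Higd1a -0.40, and second brightest ones Pgk1 -0.58, Hif1a -0.13 and Higd1a -0.77. The averages of Hk1 and Hif1a each took in a probe set under the floor on every array. Hk1 was 0.15 with arrays centred, 0.15 in replicates 1 and 2 only, where Epas1 was -1.02, and 0.021 with array weights, where Pkm was 0.054, Epas1 -0.73 and Higd1a -0.12. Leaving out 1 array, Pgk1 ranged from -0.25 to 0.60, Hk1 from -0.15 to 0.080, Hif1a from -0.18 to 0.29, Epas1 from -0.50 to 0.46, Higd1a from -0.18 to 0.70 and Ep300 from -0.0048 to 0.51. Among pairs, P4ha2 against P4ha1 was 0.022 after quantile normalization, Ldhb against Ldha -0.017 with second brightest probe sets, and in replicates 1 and 2 only Egln3 against Egln1 was 0.31, Epas1 against Hif1a -1.32 and Ldhb against Ldha -1.02. Leaving out 1 array these ranged from -1.25 to 0.75, -0.74 to 0.67, -1.47 to 0.083, and for Epas1 against Hif1a -0.70 to 0.64.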
